A study of Mus musculus with 12 samples.

Results

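Cells sorted as macrophages from the bone-associated fraction were compared with cells sorted the same way from the bone marrow of the same 3-month-old mice. The comparison holds 6 of the 12 libraries of the series, 1 library per site from each of 3 mice, and was chosen by the group labels and by the mouse code in the sample titles. All 6 libraries came from C57BL/6 mice labelled male, with no treatment or transgene named in the labels. The groups are young bone-associated (3 months, 3 mice) and young bone marrow (3 months, the same 3 mice). The other 6 libraries, bone-associated and bone marrow cells of 3 mice aged 24 months, are used here for the spread and for 1 test of whether the site difference depends on age. Every sample title carries the tag CD11b_Hi. The sort took cells positive for CD11b and F4/80 and negative for Ly6C, with DAPI as a further stain, directly into lysis buffer. These are bulk populations defined by 3 surface markers, and the sources used here do not say how the bone-associated fraction was freed from bone. The series title places the samples in a study of regional differences among marrow macrophages and the ageing of blood stem cells, so the question is what parts the macrophages of the 2 sites in young animals.

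CD11b is the integrin alpha M chain (Itgam) and F4/80 the adhesion receptor Adgre1. Marrow macrophages are a mixed set of cells. Some sit at the centre of erythroblastic islands, where they hold maturing red cells through Vcam1, engulf expelled nuclei and recycle iron. Others line bone next to osteoblasts, and the osteoclasts that resorb bone come from the same CSF1-dependent lineage and need RANK (Tnfrsf11a) signalling through Nfatc1. Macrophages also clear dying neutrophils, a large daily load in marrow, and release interleukin-1, chemokines and growth factors that act on blood stem cells. Transcripts of ingested cells and of cells bound to a macrophage can be read in such a sort beside the macrophage's own.

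Library totals ranged from 19564981 to 30334877 counts in bone-associated cells and from 26199703 to 32747702 in bone marrow. Between 16970 and 18039 genes had a count in a bone-associated library and between 19789 and 20708 in a bone marrow library. On the first principal component of the 6 young libraries, which held 60.5% of the variance, all 3 bone-associated libraries lay on one side and all 3 bone marrow libraries on the other. Levels below are CPM, each count scaled to a common library size (TMM-scaled), always in the order mouse 1, mouse 2 and mouse 3, with bone-associated cells (at bone) first and bone marrow cells (in marrow) second. Log2 fold changes are bone-associated over bone marrow, from edgeR's quasi-likelihood fit with the mouse as a block. They are given ± a standard error (SE) worked back from the log2 fold change and the F statistic of the test. This SE is thus not a measure of spread separate from the p-value. A gene was called where its Benjamini-Hochberg adjusted p was below 0.05. TMM factors were 0.887 to 0.932 in bone-associated and 1.18 to 1.22 in bone marrow libraries, so the scaling bears on small differences: with library size alone the median log2 fold change of all genes moved by -0.40, and of the calls 1119 were higher in bone-associated cells and 3531 in bone marrow. Y-linked genes of the list for a check of sex had 145 to 176 summed CPM in bone-associated and 196 to 239 in bone marrow libraries, and Xist had no count in any of the 6 young libraries.

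Of 16209 genes tested, 3984 (24.6%) were called between the sites. Bone-associated cells had the higher level for 2291 genes (14.1%) and bone marrow cells for 1693 (10.4%). Among the called genes 2193 differed by at least 2-fold and 822 by at least 4-fold, of which 312 were higher in bone-associated cells and 510 in bone marrow. The 3 libraries of one site all lay above the 3 of the other for 8636 of all genes tested (53.3%) and for 3936 of those called, and 3977 of those called had the same direction in every mouse. Nearly all called genes thus did not overlap. Where a called gene below is said not to overlap, this describes its values and is no further support for the call. The median log2 fold change over all genes tested was -0.11. Counts of called list members below are to be read beside the shares over all genes tested, 24.6% called, 14.1% higher and 10.4% lower in bone-associated cells. Leaving out a mouse lowered the number of calls to 2159 without mouse 1, 1861 without mouse 2 and 2412 without mouse 3, with 1340, 1212 and 1444 of them higher in bone-associated cells.

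**Figure D1:**
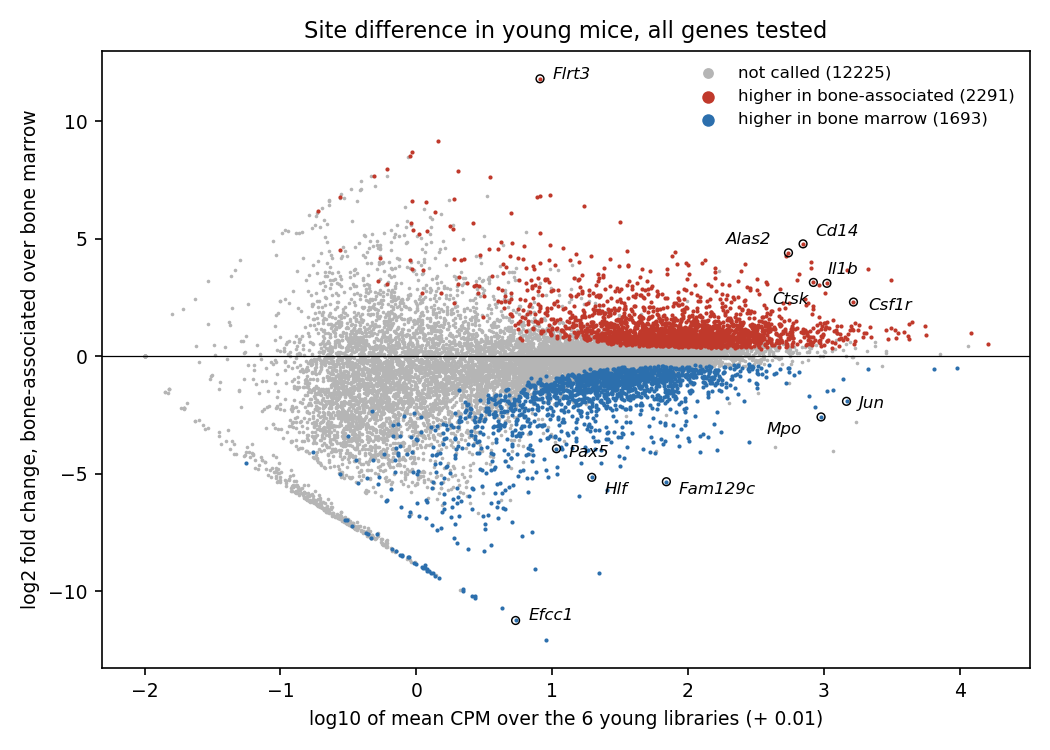
Each point is 1 of 16209 genes, with the log10 mean CPM of the 6 young libraries on the x axis and the log2 fold change of bone-associated over bone marrow on the y axis. Red and blue points are the 2291 and 1693 called genes, grey points were not called, and circled genes are named in the text.

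Macrophage identity genes were mostly higher in the bone-associated libraries. Of 25 macrophage markers, 16 were called higher there and none lower, with a median log2 fold change of 0.94 and 64% of the list called. The CSF1 receptor Csf1r, which macrophages and osteoclasts need for survival, had 3091, 2584 and 2566 CPM at bone against 730.2, 481 and 488 CPM in marrow. Its libraries did not overlap, and the log2 fold change was 2.30 (SE 0.11, adjusted p = 5.23e-05). Adgre1, the F4/80 antigen used in the sort (chr17:57358691-57483527, GRCm38), stood at 881, 762 and 854 CPM at bone against 253, 178 and 187 CPM in marrow. All bone-associated values of Adgre1 were above those of bone marrow, although both sites were gated as F4/80 positive (log2 fold change 2.03 ± 0.12, adjusted p = 7.71e-05). The endosomal glycoprotein Cd68 (1.43), the fractalkine receptor Cx3cr1 (1.63), the apoptotic cell receptor Axl (1.27) and the complement component C1qc (1.11) had positive log2 fold changes with adjusted p of at most 0.00169.

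The other gated antigen differed less. Itgam had 1078, 696 and 829.9 CPM at bone against 607, 585 and 630.2 CPM in marrow and a log2 fold change of 0.49 (adjusted p = 0.0425). The call of Itgam did not hold in 6 of 14 alternative fits, where the adjusted p was 0.653 with library-size scaling, 0.0550 without the low-count filter, 0.224 without mouse 1, 0.0628 without mouse 2, 0.111 without mouse 3 and 0.0600 without aged mouse 1. Spi1, the transcription factor PU.1 of all myeloid cells, had 682, 668 and 702 CPM at bone against 464, 386 and 406 CPM in marrow (log2 fold change 0.71 ± 0.11, adjusted p = 0.00236). Spi1 lost its call in 1 of 14 alternative fits, at adjusted p of 0.0587 with library-size scaling. The apoptotic cell receptor Mertk had 159.6, 108 and 116 CPM at bone against 136, 117 and 111 CPM in marrow, with overlapping libraries and a log2 fold change of 0.06 (SE 0.12, adjusted p = 0.767). Siglec1, the sialic acid receptor CD169 of island macrophages, also overlapped, at 222, 146 and 186 CPM at bone against 182, 142 and 125 CPM in marrow (log2 fold change 0.30, adjusted p = 0.275). Under library-size scaling the log2 values of these 2 genes changed sign, to -0.34 for Mertk and -0.10 for Siglec1, and that of Mertk was -0.05 without mouse 1. The haemoglobin scavenger receptor Cd163 (0.73, adjusted p = 0.0986) did not pass the test. Cd163 passed in 6 of 14 alternative fits, at adjusted p of 0.00544 with the young libraries alone, 0.0123 with the young libraries alone and no block, 0.0300 with DESeq2, 0.0167 with limma-voom, 0.0456 without aged mouse 2 and 0.00939 without aged mouse 3. The macrophage list had 8 calls with library-size scaling, 9 without mouse 2 and 10 without mouse 3.

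The Ly6C gene Ly6c2 and monocyte lists were also compared between the sites. Both sites were gated the same way and there is no Ly6C-positive sample, so this does not check the gate itself. Ly6c2 had 227, 157 and 211 CPM at bone against 203, 242 and 259 CPM in marrow, with overlapping libraries and no call at a log2 fold change of -0.25 (adjusted p = 0.343). With library-size scaling it passed at -0.65 (adjusted p = 0.0256). Of 11 genes that mark Ly6C-low monocytes, 10 were called higher in bone-associated cells and none lower, with a median log2 fold change of 1.34. They include Nr4a1, the nuclear receptor these monocytes depend on (1596, 1309 and 1419 CPM at bone against 754, 568 and 548 CPM in marrow; log2 fold change 1.22 ± 0.13, adjusted p = 5.18e-04), and the activating receptor Cd300e (132, 107 and 184 CPM at bone against 53.6, 34.3 and 41.6 CPM in marrow; log2 fold change 1.69 ± 0.20, adjusted p = 8.23e-04). Of 10 genes of Ly6C-high monocytes, 3 were higher in bone-associated cells and 1 in bone marrow (40% called, against 24.6% of all genes tested). With library-size scaling 2 were higher in each, and without mouse 2 or mouse 3 only 1 was higher in bone-associated cells. The coagulation transglutaminase F13a1 was among the higher ones, at 312, 244 and 142 CPM at bone against 53.7, 37.2 and 42.5 CPM in marrow (log2 fold change 2.33 ± 0.38, adjusted p = 0.00327).

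**Figure D2:**
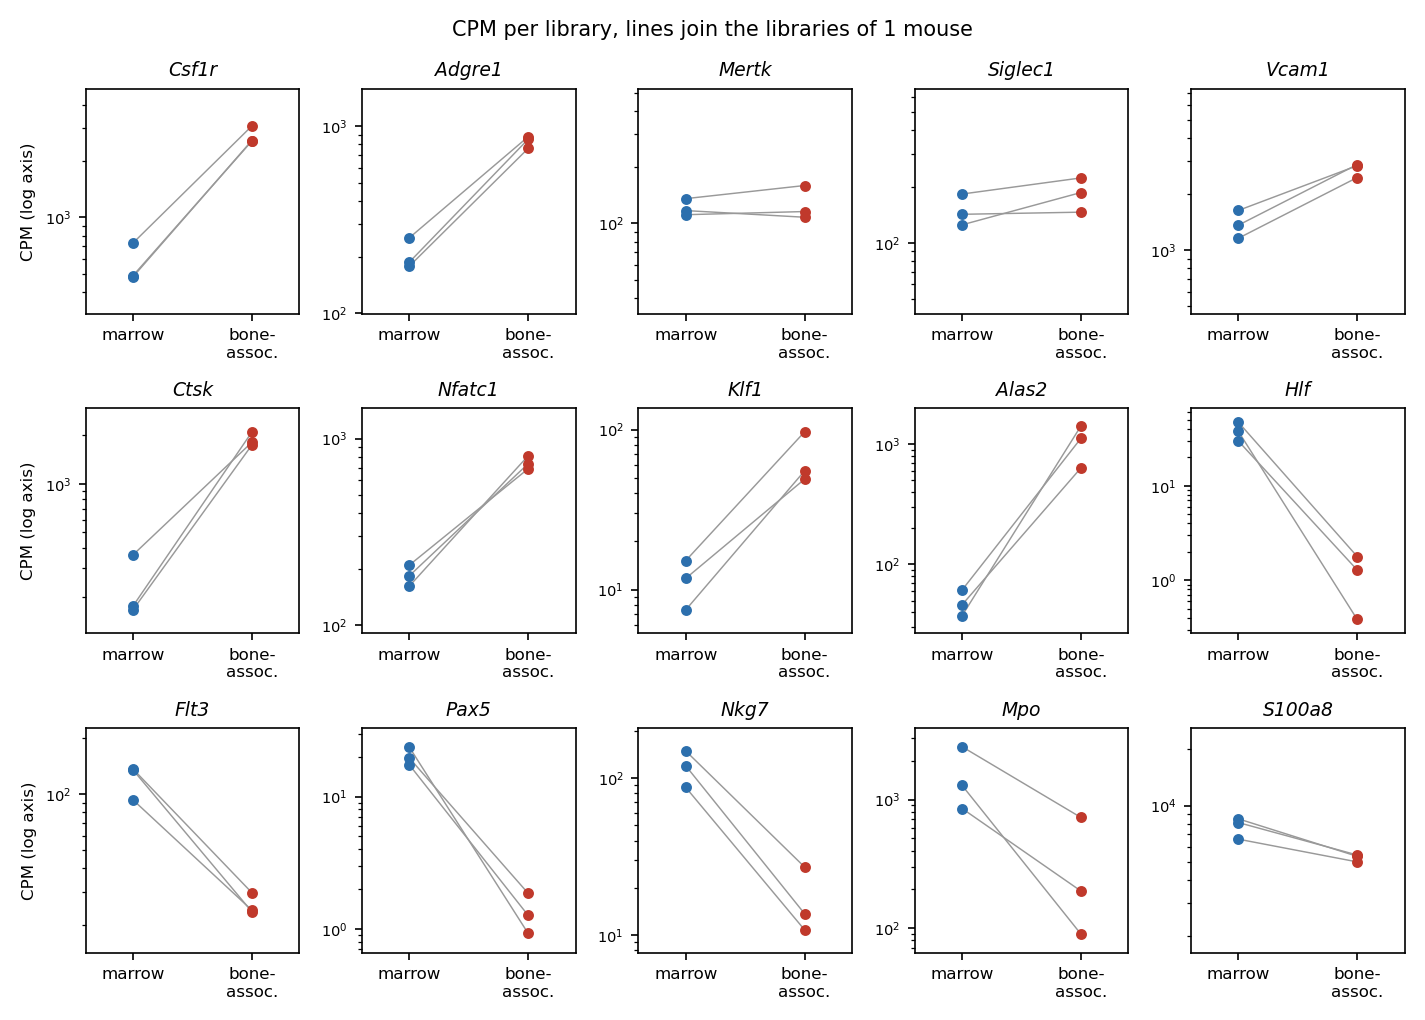
CPM (log axis) of 15 marker genes in each young library, with a line joining the bone marrow and bone-associated library of each mouse. Csf1r, Adgre1, Ctsk, Nfatc1, Klf1 and Alas2 are higher in every bone-associated library, Hlf, Flt3, Pax5 and Nkg7 are higher in every bone marrow library, and Mertk and Siglec1 overlap.

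The lysosome, the organelle in which macrophages digest what they engulf, differed between the sites as a group. Of 31 lysosomal genes, 27 were called higher in bone-associated cells and none lower (87.1% called, median log2 fold change 1.21), and they had 30724 to 32747 summed CPM in bone-associated and 12879 to 16075 in bone marrow libraries. The protease cathepsin B (Ctsb) had 6407, 5498 and 6390.1 CPM at bone against 2796, 2042 and 2266 CPM in marrow (log2 fold change 1.37 ± 0.11, adjusted p = 1.94e-04). Cathepsin S (Ctss), which trims the class II invariant chain, had 1708, 1899.9 and 1611 CPM at bone against 756, 578 and 485 CPM in marrow (log2 fold change 1.54 ± 0.15, adjusted p = 3.46e-04). The autophagy receptor Sqstm1 (p62), which carries ubiquitin-tagged cargo to the lysosome, had the largest difference of the list, at 1422, 1479 and 1213 CPM at bone against 330.1, 289.6 and 309 CPM in marrow (log2 fold change 2.14, adjusted p = 5.25e-05). No bone-associated library overlapped a bone marrow library for any of these 3 genes. The acid ceramidase Asah1 (1.30), the peptidase Tpp1 (1.32) and the acid lipase Lipa (1.21) had log2 fold changes close to each other. The 4 members not called include the sialidase Neu1 and Tfeb, at log2 fold changes of -0.12 and -0.07. Tfeb is the transcription factor that drives many lysosomal genes, and its own level was 62.9, 52.3 and 65.3 CPM at bone against 69.6, 58.4 and 61.4 CPM in marrow. With library-size scaling 23 of the 31 were higher in bone-associated cells and 3 in bone marrow.

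TFEB and its relatives bind an E-box within the CLEAR element, so promoters of the list were searched for its palindromic core TCACGTGA, which reads the same on both strands. RefSeq start-site windows (GRCm38.p6, 250 bases before to 50 after a start) matched 24 of the 31 genes, with 29 windows. The core was in 4 of these windows (13.8%) and in 0.974% of all 32851 windows. The windows belong to Ctsa, Ctsd and Gla, which were called, and to Mcoln1, which was not. The 250 bases before the start of the protective protein cathepsin A (Ctsa) and of the galactosidase Gla are shown in the gene's own direction because both genes were called and carry the core, which is in capitals. A match describes these letters and is not evidence of binding.
Ctsa, chr2:164833523-164833772, plus strand: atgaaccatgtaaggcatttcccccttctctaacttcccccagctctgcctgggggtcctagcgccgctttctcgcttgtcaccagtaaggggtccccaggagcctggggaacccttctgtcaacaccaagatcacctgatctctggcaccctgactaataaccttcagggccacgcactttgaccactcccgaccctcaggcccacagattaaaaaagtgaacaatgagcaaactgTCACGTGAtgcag
Gla, chrX:134601006-134601255, minus strand: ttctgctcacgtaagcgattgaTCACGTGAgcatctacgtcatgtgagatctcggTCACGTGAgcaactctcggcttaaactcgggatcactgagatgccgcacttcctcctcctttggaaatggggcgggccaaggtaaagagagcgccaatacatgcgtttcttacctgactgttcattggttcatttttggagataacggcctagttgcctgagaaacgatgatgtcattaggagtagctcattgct

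Ctsa, chosen for its promoter after its values were seen, had 1462, 1406 and 1505 CPM at bone against 654, 481 and 524 CPM in marrow (log2 fold change 1.41 ± 0.12, adjusted p = 2.28e-04). Gla, chosen in the same way, had 78.6, 78.6 and 80.9 CPM at bone against 26.1, 19.2 and 20.9 CPM in marrow (log2 fold change 1.86 ± 0.15, adjusted p = 1.94e-04). The core lies at base -13 from the start in Ctsa and at bases -228 and -195 in Gla. Mcoln1, a lysosomal calcium channel whose window also has the core, had 43.9, 55.7 and 40.8 CPM at bone against 64.8, 50.5 and 44.9 CPM in marrow and overlapped between sites.

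Receptors and bridging proteins for dying cells, lipids and microbes were higher in bone-associated cells as groups. Of 24 genes of apoptotic cell uptake, 13 were called higher and none lower (median log2 fold change 0.91). The number called higher was 8 without mouse 1 and 8 without mouse 2. The integrin alpha V chain Itgav, a partner in the receptor for bridged apoptotic cells, had 371, 294 and 255 CPM at bone against 74.9, 72.7 and 63.2 CPM in marrow (log2 fold change 2.11 ± 0.13, adjusted p = 9.36e-05). Pros1, the protein S ligand that bridges phosphatidylserine to Axl and Mertk, had 67.7, 101 and 62.7 CPM at bone against 13.6, 16.3 and 8.35 CPM in marrow (log2 fold change 2.61 ± 0.18, adjusted p = 1.17e-04). Each bone-associated library exceeded every bone marrow library for both genes. Of 19 scavenger and lectin receptors tested, 10 were higher and none lower. The C-type lectin Clec4e (Mincle), a sensor of dead cells and mycobacterial glycolipid, had 369.8, 330.1 and 328 CPM at bone against 84.8, 74.8 and 54.1 CPM in marrow (log2 fold change 2.29 ± 0.16, adjusted p = 1.18e-04). The beta-glucan receptor Clec7a had a log2 fold change of 2.004, Clec4d one of 2.53 and the oxidised lipoprotein receptor Olr1 one of 2.63, all called.

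Complement genes were higher as a group too, and Fc receptors were split. Of 16 complement genes, 10 were called higher in bone-associated cells and none lower, and all 16 had a positive log2 fold change. Alternative fits moved the count of higher genes to 6 with library-size scaling and 6 without mouse 2. The anaphylatoxin receptors C3ar1 (190.5, 175 and 143 CPM at bone against 29.8, 21.6 and 20.7 CPM in marrow; log2 fold change 2.83 ± 0.40, adjusted p = 0.00172) and C5ar1 (729, 645 and 774 CPM at bone against 248, 218 and 195 CPM in marrow; log2 fold change 1.70 ± 0.17, adjusted p = 3.94e-04) did not overlap between sites. Of 7 Fc receptor genes, 3 were higher, including Fcgr4 (123, 128 and 164 CPM at bone against 73.6, 46.9 and 65.4 CPM in marrow; log2 fold change 1.17 ± 0.15, adjusted p = 0.00121) and the neonatal receptor Fcgrt (1.23). The basophil receptor chain Fcer1a was lower, and Fcgr1, the macrophage receptor CD64, stood at 76.9, 91.9 and 76.99 CPM at bone against 51.6, 40.3 and 37.2 CPM in marrow, just outside the call (log2 fold change 0.94, adjusted p = 0.0503). Fcgr1 passed in 6 of 14 alternative fits, at adjusted p of 0.00426 with the young libraries alone, 0.00224 with the young libraries alone and no block, 0.0112 with DESeq2, 0.0238 with limma-voom, 0.0191 without aged mouse 1 and 0.0122 without aged mouse 2.

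Cd14, the lipopolysaccharide co-receptor, was among the genes with the smallest adjusted p of the whole table. It had 1287, 1583 and 1209.8 CPM at bone against 59.2, 49.7 and 40.7 CPM in marrow, so the lowest bone-associated value was about 20 times the highest bone marrow value (log2 fold change 4.78 ± 0.19, adjusted p = 2.81e-05). Tlr2, the receptor for bacterial lipopeptides, had 1308, 1170.1 and 989.7 CPM at bone against 162, 111 and 103 CPM in marrow (log2 fold change 3.22 ± 0.15, adjusted p = 3.62e-05). Both genes stood clear of overlap in all 6 libraries. Of 13 Toll-like receptor genes and co-receptors, 5 were higher and 1 was lower. This count of higher genes was 3 with library-size scaling, 3 without mouse 2 and 3 without mouse 3. Tlr13, an endosomal sensor of bacterial ribosomal RNA, had 266, 169.8 and 269 CPM at bone against 131, 81.8 and 90.1 CPM in marrow (log2 fold change 1.22 ± 0.14, adjusted p = 7.04e-04). Tlr4, the receptor that CD14 serves, had a log2 fold change of 0.26 and was not called (adjusted p = 0.245).

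Interleukin-1 ligands, their inhibitors and inflammasome parts did not move as 1 block. Il1b (chr2:129364570-129371139, GRCm38), the secreted form of interleukin-1, had 1229.7, 1726 and 1562 CPM at bone against 213, 174 and 132 CPM in marrow. The lowest bone-associated library was above 5 times the highest bone marrow library, with a log2 fold change of 3.14 (SE 0.20, adjusted p = 9.44e-05). Il1a, the membrane and alarm form, had 85.4, 82.3 and 39.6 CPM at bone against 10.1, 7.80 and 9.42 CPM in marrow (log2 fold change 2.85 ± 0.45, adjusted p = 0.00288). The receptor antagonist Il1rn, which blocks both ligands, had 361, 426 and 306 CPM at bone against 77.6, 70.1 and 47.9 CPM in marrow (log2 fold change 2.50 ± 0.13, adjusted p = 5.25e-05), and the decoy receptor Il1r2 had 406, 302 and 394 CPM at bone against 98.6, 65.5 and 49.3 CPM in marrow (log2 fold change 2.41 ± 0.22, adjusted p = 3.16e-04). So ligands and inhibitors were higher together in all 3 mice. The inflammasome sensor Nlrp3 had 79.6, 72.7 and 76.4 CPM at bone against 25.2, 17.5 and 13.6 CPM in marrow (log2 fold change 2.06 ± 0.24, adjusted p = 6.69e-04). In contrast, the DNA sensor Aim2 had 17.3, 17.2 and 11.8 CPM at bone against 41.6, 35.7 and 28.7 CPM in marrow and was called lower (log2 fold change -1.20 ± 0.15, adjusted p = 9.50e-04). Caspase-1 (Casp1), which cuts pro-interleukin-1 beta, overlapped between the sites at 65.98, 75.1 and 82.6 CPM at bone against 96.99, 80.3 and 63.1 CPM in marrow (log2 fold change -0.09 ± 0.17, adjusted p = 0.745), with a sign that changed to 0.13 without mouse 1. The signalling receptor Il1r1 had 0.601, 3.84 and 2.33 CPM at bone against 5.53, 9.61 and 7.26 CPM in marrow and was not called (log2 fold change -2.02, adjusted p = 0.0598). Il1r1 passed in 7 of 14 alternative fits, at adjusted p of 0.0158 with the young libraries alone, 0.0418 with the young libraries alone and no block, 0.0256 with library-size scaling, 0.00833 with DESeq2, 0.0178 with limma-voom, 0.0426 without aged mouse 2 and 0.0491 without aged mouse 3. Over the whole list of 23, 9 were higher and 3 lower, at a median log2 fold change of 0.12. With library-size scaling the balance turned, to 6 higher and 7 lower at a median of -0.29. Lower calls fell to 1 without mouse 1 and rose to 6 with DESeq2.

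**Figure D3:**
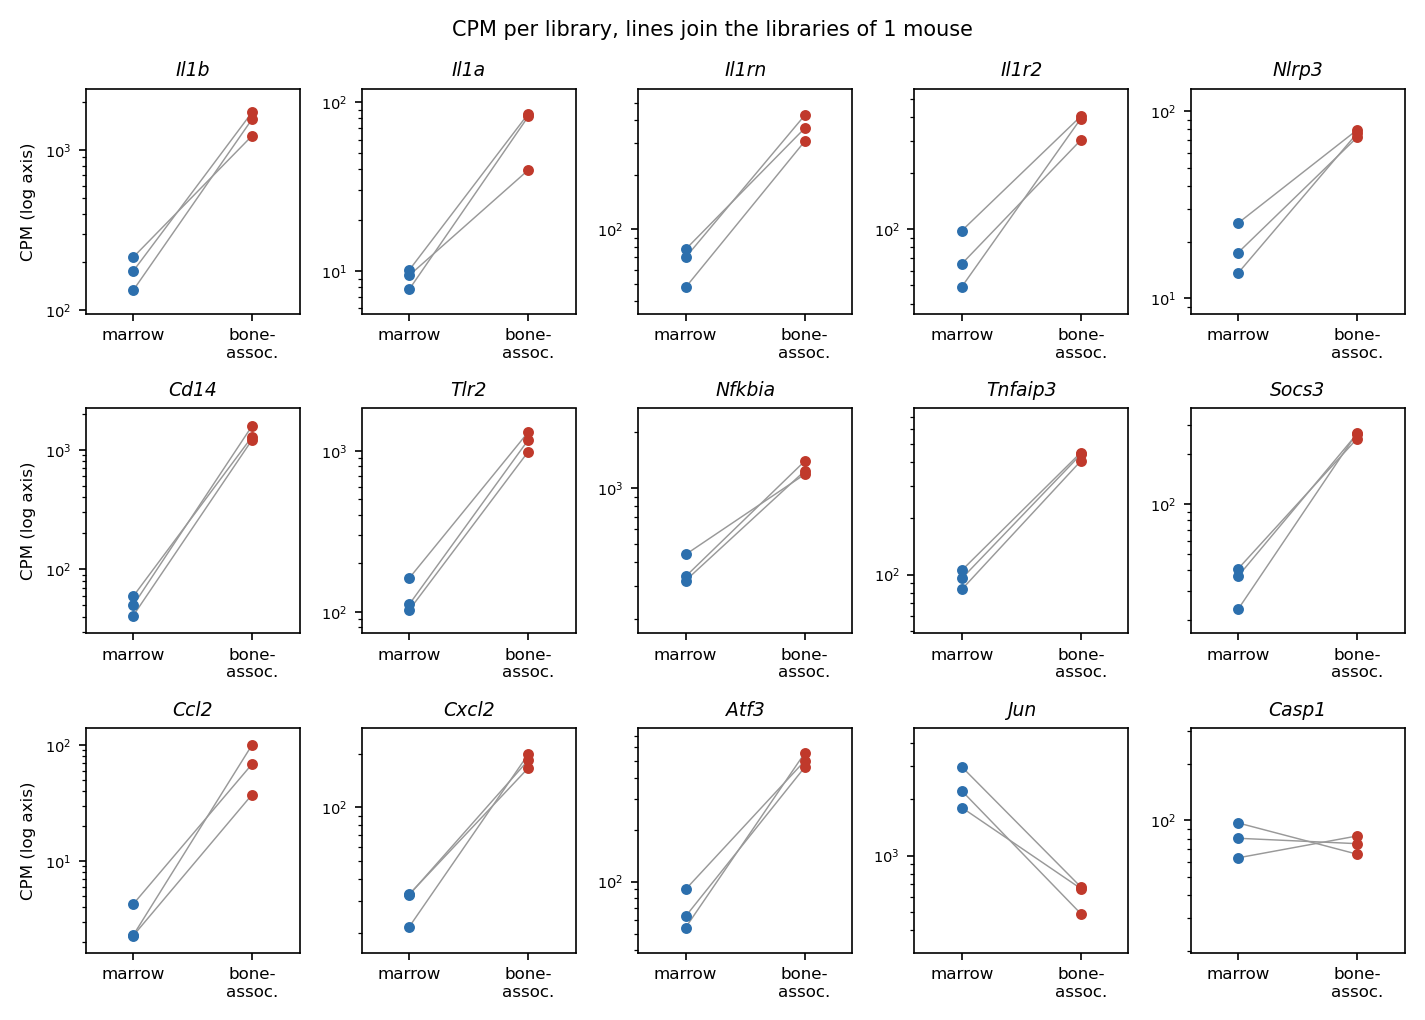
CPM (log axis) of 15 genes of interleukin-1, Toll-like receptor, NF-kB, chemokine and immediate early groups in each young library, with a line joining the libraries of each mouse. Bone-associated values are above every bone marrow value for all panels but Jun, which is lower in every bone-associated library, and Casp1, which overlaps.

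NF-kB regulators were mostly higher in bone-associated cells. Of 21 genes, 17 were called higher and none lower (81% called, median log2 fold change 1.57). The inhibitor Nfkbia, which holds NF-kB in the cytoplasm and is itself an NF-kB target, had 1184, 1392 and 1234 CPM at bone against 441, 336 and 319.7 CPM in marrow (log2 fold change 1.81 ± 0.14, adjusted p = 1.94e-04). The deubiquitinase Tnfaip3 (A20), a feedback brake, had 451, 440.3 and 406 CPM at bone against 106, 95.5 and 83.4 CPM in marrow (log2 fold change 2.19 ± 0.12, adjusted p = 5.25e-05). The cytokine signalling inhibitor Socs3 had 249.7, 267 and 271 CPM at bone against 40.9, 36.9 and 23.4 CPM in marrow (log2 fold change 2.997 ± 0.21, adjusted p = 1.18e-04). None of these 3 genes overlapped between sites. Mitochondrial superoxide dismutase Sod2 had a log2 fold change of 1.57 (adjusted p = 1.78e-04). The 4 members not called include the regulators Nfkbid (0.49, adjusted p = 0.0548) and Tnip1 (0.56, adjusted p = 0.0771). Nfkbid passed in 4 of 14 alternative fits, at adjusted p of 0.0303 with the young libraries alone, 0.0165 with DESeq2, 0.0377 with limma-voom and 0.0216 without aged mouse 3. Tnip1 passed in 4 of 14 alternative fits, at adjusted p of 0.0203 with the young libraries alone, 0.00829 with the young libraries alone and no block, 0.0430 with DESeq2 and 0.0145 without aged mouse 3.

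Cytokine and chemokine genes were split. Of 19 inflammatory cytokine genes tested, 8 were higher in bone-associated cells and 3 lower. The number called higher was 5 with library-size scaling, 5 without mouse 2 and 4 without mouse 3. Il10, an inhibitor of macrophage activation, had 19.2, 17.5 and 22.3 CPM at bone against 2.03, 0.593 and 1.70 CPM in marrow (log2 fold change 3.88 ± 0.33, adjusted p = 2.24e-04). Tnfsf9, the 4-1BB ligand, had 30.4, 66.1 and 25.4 CPM at bone against 4.90, 4.40 and 2.34 CPM in marrow (log2 fold change 3.33 ± 0.27, adjusted p = 1.94e-04). In the other direction Il12a, the smaller chain of interleukin-12, had 0.721, 0.439 and 1.38 CPM at bone against 12.5, 17.6 and 19.5 CPM in marrow (log2 fold change -4.37 ± 0.54, adjusted p = 9.82e-04). Il6 was low at both sites and overlapped, at 3.93, 2.69 and 8.14 CPM at bone against 16.3, 9.64 and 5.84 CPM in marrow (adjusted p = 0.133). Il6 passed in 1 of 14 alternative fits, at adjusted p of 0.0113 without mouse 3. Of 22 chemokine genes, 13 were higher and 2 lower, with a median log2 fold change of 2.04, or 1.79 with genes absent from a site at their bound. Alternative fits moved the count of higher genes to 8 with library-size scaling and 8 without mouse 2. The monocyte attractants Ccl2 (68.5, 100.2 and 37.3 CPM at bone against 4.23, 2.28 and 2.26 CPM in marrow; log2 fold change 4.49 ± 0.49, adjusted p = 5.77e-04) and Ccl7 (55.97, 100.5 and 29.4 CPM at bone against 2.84, 1.59 and 0.102 CPM in marrow; log2 fold change 5.69 ± 0.63, adjusted p = 6.08e-04) lie side by side on chromosome 11 and showed the same order of mice in bone-associated cells. The neutrophil attractant Cxcl2 had 166, 184 and 199 CPM at bone against 32.8, 32.6 and 21.6 CPM in marrow (log2 fold change 2.68 ± 0.23, adjusted p = 2.46e-04), and Cxcl16 143, 215 and 115 CPM at bone against 35.02, 37.6 and 17.8 CPM in marrow (log2 fold change 2.41 ± 0.26, adjusted p = 5.84e-04). Ccl5, an attractant of T cells, was lower at 7.37, 5.81 and 10.5 CPM at bone against 30.1, 24.1 and 16.9 CPM in marrow (log2 fold change -1.59 ± 0.30, adjusted p = 0.00642). The call of Ccl5 did not hold in 2 of 14 alternative fits, where the adjusted p was 0.0520 without mouse 1 and 0.0573 without mouse 2. Of 12 chemokine receptors, 7 were higher and 1 was lower, and the chemerin-binding receptor Ccrl2 differed most, at 290.1, 261 and 289.6 CPM at bone against 53.1, 37.2 and 35.97 CPM in marrow (log2 fold change 2.76 ± 0.20, adjusted p = 1.45e-04).

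Because the NF-kB regulators and chemokines were higher together, their start-site windows were searched on both strands for GGGNNNTTCC, a short form of the kB site. It was in 10 of 22 windows of the NF-kB regulators (45.5%, 17 of 21 genes matched), in 5 of 16 windows of the chemokines (31.2%), in 3 of 15 windows of the inflammatory cytokines and in 5.56% of all 32851 windows. Matches to the 2 strands can overlap. The regulator list includes NF-kB targets such as Nfkbia, so its share of matches is no evidence about the site difference. A match describes letters and is not evidence of binding. Promoters of Nfkbia and Tnfaip3, and of the chemokines Cxcl1 and Cxcl2, are shown because those genes were called and carry a match. Each is given as the 250 bases before the start in the gene's direction with matches in capitals.
Nfkbia, chr12:55492648-55492897, minus strand: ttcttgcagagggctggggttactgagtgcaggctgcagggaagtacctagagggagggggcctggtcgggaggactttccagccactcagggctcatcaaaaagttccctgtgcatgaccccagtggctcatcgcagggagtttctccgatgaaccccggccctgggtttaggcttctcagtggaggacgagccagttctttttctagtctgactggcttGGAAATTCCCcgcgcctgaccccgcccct
Tnfaip3, chr10:19015411-19015660, minus strand: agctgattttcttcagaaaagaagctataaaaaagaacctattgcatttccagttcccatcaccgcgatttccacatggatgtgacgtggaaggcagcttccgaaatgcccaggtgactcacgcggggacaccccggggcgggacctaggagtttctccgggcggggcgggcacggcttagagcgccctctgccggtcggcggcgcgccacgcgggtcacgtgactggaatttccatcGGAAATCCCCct
Cxcl1, chr5:90890995-90891244, plus strand: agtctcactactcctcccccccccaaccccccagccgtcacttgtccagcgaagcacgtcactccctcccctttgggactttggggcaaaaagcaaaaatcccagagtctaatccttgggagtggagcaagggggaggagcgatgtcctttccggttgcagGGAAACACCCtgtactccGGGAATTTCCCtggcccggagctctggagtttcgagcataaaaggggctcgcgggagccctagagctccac
Cxcl2, chr5:90903649-90903898, plus strand: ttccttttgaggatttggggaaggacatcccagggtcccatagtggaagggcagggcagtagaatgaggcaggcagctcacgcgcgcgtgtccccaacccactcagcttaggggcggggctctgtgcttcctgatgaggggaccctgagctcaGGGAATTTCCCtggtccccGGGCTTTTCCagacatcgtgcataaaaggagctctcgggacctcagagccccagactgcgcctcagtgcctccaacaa

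Matches start at base -29 from the start in Nfkbia and -12 in the window shown for Tnfaip3, which has a second annotated start. In Cxcl1 they start at bases -89, -71 and -70 and in Cxcl2 at bases -97, -96 and -78. Cxcl1, chosen for its promoter after its values were seen, had low levels, 9.25, 10.04 and 4.87 CPM at bone against 0.492, 0.125 and 0.228 CPM in marrow (log2 fold change 4.85 ± 0.61, adjusted p = 0.00104). Matches also stand in the windows of Nfkbid, Tnip1, Csf1 and Il6, none of which was called, so a match was found in called and uncalled members alike.

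Immediate early genes, which respond within minutes to stimuli and to handling of cells, were mostly higher in bone-associated cells, with exceptions of opposite sign. Of 30 genes, 20 were higher and 3 lower (76.7% called, median log2 fold change 1.16). The stress factor Atf3 had 498, 553 and 458 CPM at bone against 90.2, 54.2 and 62.98 CPM in marrow (log2 fold change 2.89 ± 0.18, adjusted p = 9.25e-05). The AP-1 member Fosl1 had 60.1, 49.2 and 43.5 CPM at bone against 3.39, 2.68 and 2.61 CPM in marrow (log2 fold change 4.13 ± 0.18, adjusted p = 3.62e-05), the largest log2 fold change of the 30. The nuclear receptors Nr4a2 (172, 226 and 141 CPM at bone against 15.9, 28.9 and 13.3 CPM in marrow; log2 fold change 3.27 ± 0.17, adjusted p = 5.25e-05) and Nr4a3 (29.5, 34.8 and 21.8 CPM at bone against 2.81, 4.62 and 1.83 CPM in marrow; log2 fold change 3.29 ± 0.24, adjusted p = 1.38e-04) were also higher. Jun, the partner of the Fos proteins in AP-1, went the other way at 678, 488 and 665 CPM at bone against 2980.3, 2218 and 1805 CPM in marrow (log2 fold change -1.92 ± 0.27, adjusted p = 0.00157). No library overlapped between the sites for any of these 5 genes. Zfp36, a member of the same list whose product degrades cytokine messages, had 1043, 1015 and 908 CPM at bone against 1222, 969 and 818 CPM in marrow, with overlapping libraries and no call (adjusted p = 0.988). Fos itself had 2345, 2126 and 2261 CPM at bone against 1197, 968 and 933 CPM in marrow (log2 fold change 1.13 ± 0.15, adjusted p = 0.00136).

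Start-site windows of this list were searched on both strands for the AP-1 site TGACTCA and the cyclic AMP response element TGACGTCA, with 25 of the 30 genes matched. TGACTCA was in 0 of 31 windows, against 5.2% of all windows, and TGACGTCA in 4 of 31 (12.9%), against 1.79%. Of 18 windows of the matrix and protease list 3 held TGACTCA (16.7%). The absence of a match says only that these letters are not in these windows.

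Chaperones split in a similar way. Of 15 heat shock and chaperone genes, 9 were higher and 1 lower, or 6 and 2 with library-size scaling. The co-chaperone Bag3 had 53.2, 54.5 and 42.4 CPM at bone against 11.7, 8.30 and 9.47 CPM in marrow (log2 fold change 2.35 ± 0.19, adjusted p = 1.94e-04), and the endoplasmic reticulum chaperone Hspa5 (BiP) had 2379, 2461 and 2502 CPM at bone against 1141, 1074 and 1224 CPM in marrow (log2 fold change 1.10 ± 0.16, adjusted p = 0.00197). The inducible Hspa1b was lower, at 853, 369.7 and 654 CPM at bone against 2489.6, 1525 and 1094 CPM in marrow (log2 fold change -1.45 ± 0.28, adjusted p = 0.00755). Hspa1b lost its call in 1 of 14 alternative fits, at adjusted p of 0.0534 without mouse 2. Handling of cells can change transcripts of these 2 groups, and any difference in handling between the sites cannot be told apart from the site itself.

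Osteoclast genes were higher in the bone-associated libraries, beside bone matrix genes at much lower levels. Of 14 osteoclast markers, 11 were called higher and none lower (78.6% called, median log2 fold change 2.53), and they had 11534 to 11724 summed CPM in bone-associated and 3105 to 3712 in bone marrow libraries. Cathepsin K (Ctsk, chr3:95499256-95509362), the collagenase of the resorbing osteoclast, had 1807, 2089 and 1736 CPM at bone against 363, 175 and 166 CPM in marrow (log2 fold change 3.10 ± 0.30, adjusted p = 3.73e-04). The proton pump subunit Atp6v0d2, needed for osteoclast fusion, had 612, 821 and 577 CPM at bone against 85.9, 63.9 and 77.7 CPM in marrow (log2 fold change 3.14 ± 0.20, adjusted p = 9.66e-05). Nfatc1, the master transcription factor of osteoclasts, had 734, 809.8 and 690.0 CPM at bone against 184, 162 and 210.2 CPM in marrow (log2 fold change 2.01 ± 0.15, adjusted p = 1.77e-04), and Tnfrsf11a (RANK) had 184, 166 and 165 CPM at bone against 52.1, 44.3 and 39.7 CPM in marrow (log2 fold change 1.93 ± 0.16, adjusted p = 1.94e-04). All 4 genes separated the sites in every mouse, and all 4 were also counted in every bone marrow library. Carbonic anhydrase 2 (Car2), which acidifies the resorption pit and is also a red cell enzyme, had a log2 fold change of 2.43. The calcitonin receptor Calcr and Oscar, late osteoclast genes, were at most 5.78 and 9.87 CPM in any library and were not called. Calcr passed in 4 of 14 alternative fits, at adjusted p of 0.0335 with the young libraries alone, 0.0251 with the young libraries alone and no block, 0.00967 with DESeq2 and 0.0386 with limma-voom. Oscar passed in 5 of 14 alternative fits, at adjusted p of 0.0147 with the young libraries alone, 0.00405 with the young libraries alone and no block, 0.0431 with DESeq2, 0.0124 with limma-voom and 0.0487 without aged mouse 3.

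Of 14 osteoblast and osteocyte genes tested, 6 were higher and 1 was lower, and 4 more of the 18 listed, Dmp1, Phex, Sost and Mepe, were too low to test. Osteopontin (Spp1), made by osteoblasts, osteoclasts and macrophages, had 283, 294 and 173 CPM at bone against 26.1, 29.1 and 33.2 CPM in marrow (log2 fold change 3.06 ± 0.25, adjusted p = 2.09e-04). Osteonectin (Sparc) had 112, 48.2 and 149 CPM at bone against 9.59, 23.4 and 12.1 CPM in marrow (log2 fold change 2.78 ± 0.50, adjusted p = 0.00515). The collagen chain Col1a2 had 47.3, 34.4 and 46.5 CPM at bone against 7.10, 10.01 and 8.02 CPM in marrow (log2 fold change 2.35 ± 0.31, adjusted p = 0.00127) and decorin (Dcn) 18.3, 9.65 and 7.81 CPM at bone against 0.261, 0.905 and 0.305 CPM in marrow (log2 fold change 4.69 ± 0.78, adjusted p = 0.00369), so these matrix transcripts were counted in every library of both sites and separated them. The list had 494 to 562 summed CPM in bone-associated and 90.6 to 112 in bone marrow libraries. Osteoblast transcription factor Runx2 went the other way, at 14.4, 15.5 and 7.45 CPM at bone against 24.8, 24.6 and 25.4 CPM in marrow (log2 fold change -1.07 ± 0.30, adjusted p = 0.0336). The call of Runx2 did not hold in 3 of 14 alternative fits, where the adjusted p was 0.0907 without mouse 1, 0.0784 without mouse 2 and 0.174 without mouse 3. Of 25 genes of matrix and matrix proteases, 16 were higher and none lower. The membrane-bound collagenase Mmp14 had 306, 355 and 290.1 CPM at bone against 35.95, 37.9 and 40.2 CPM in marrow (log2 fold change 3.06 ± 0.25, adjusted p = 1.94e-04), transglutaminase 2 (Tgm2) had 408, 399.8 and 450.1 CPM at bone against 42.1, 45.4 and 51.6 CPM in marrow (log2 fold change 3.18 ± 0.20, adjusted p = 9.25e-05), and thrombospondin 1 (Thbs1), an adhesive protein of platelets and macrophages, had 2079, 1186 and 1257 CPM at bone against 149, 113 and 74.9 CPM in marrow (log2 fold change 3.75 ± 0.23, adjusted p = 9.25e-05). Mmp9, shared by osteoclasts and neutrophils, was at 4777, 3806 and 4616 CPM at bone against 2034, 1801 and 1829 CPM in marrow (log2 fold change 1.22 ± 0.13, adjusted p = 4.56e-04).

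Red cell genes gave the highest median log2 fold change of the 50 lists. Of 18 erythroid genes tested, 16 were called higher in bone-associated cells and none lower (88.9% called, median log2 fold change 3.01), with 12946 to 24164 summed CPM in bone-associated and 1537 to 1998 in bone marrow libraries. Haemoglobin genes took 0.929% to 1.68% of the counts of bone-associated libraries and 0.113% to 0.193% of those of bone marrow. Alas2 (chrX:150547375-150570638), the first enzyme of haem synthesis in red cells, had 1114, 633 and 1411 CPM at bone against 61.2, 46.2 and 37.5 CPM in marrow (log2 fold change 4.39 ± 0.37, adjusted p = 2.12e-04). The erythroid transcription factor Klf1 had 55.2, 49.02 and 96.9 CPM at bone against 7.47, 11.8 and 15.2 CPM in marrow (log2 fold change 2.54 ± 0.25, adjusted p = 3.84e-04) and the nuclear protein Hemgn 96.2, 68.9 and 127 CPM at bone against 8.72, 11.4 and 16.5 CPM in marrow (log2 fold change 2.999 ± 0.23, adjusted p = 1.94e-04). In bone-associated cells mouse 3 was the highest and mouse 2 the lowest for each of these 3 genes, and in no gene of the 3 did the sites overlap. Gata1, shared with megakaryocytes, mast cells and eosinophils, was not called, at 20.03, 26.5 and 31.7 CPM at bone against 11.3, 16.3 and 25.4 CPM in marrow (adjusted p = 0.109). Gata1 passed in 1 of 14 alternative fits, at adjusted p of 0.0443 with the young libraries alone.

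Many but not all genes by which macrophages host red cell precursors and handle iron were higher as well. Of 23 listed for the island macrophage and for haem and iron, 14 were higher and none lower (median log2 fold change 0.99). Vcam1, which binds erythroblasts and stem cells, had 2841, 2453 and 2879 CPM at bone against 1635, 1160.4 and 1363 CPM in marrow (log2 fold change 0.99 ± 0.11, adjusted p = 6.70e-04). The transferrin receptor Tfrc, high on erythroblasts, had 309, 273 and 339.8 CPM at bone against 97.1, 124 and 149.6 CPM in marrow (log2 fold change 1.33 ± 0.14, adjusted p = 5.11e-04), and the ferritin heavy chain Fth1, an iron store, had 6308, 6990.1 and 6254 CPM at bone against 2798, 2328 and 2037 CPM in marrow (log2 fold change 1.46 ± 0.14, adjusted p = 3.66e-04). Spic, the transcription factor of iron-recycling macrophages, overlapped between sites at 159, 209.9 and 131 CPM at bone against 211, 169 and 149 CPM in marrow (adjusted p = 0.745). The macrophage genes Siglec1, Cd163 and Mertk, given above, were not called either. In bulk samples, fewer cells of a type and less RNA per cell cannot be told apart, here and for every list above and below.

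**Figure D4:**
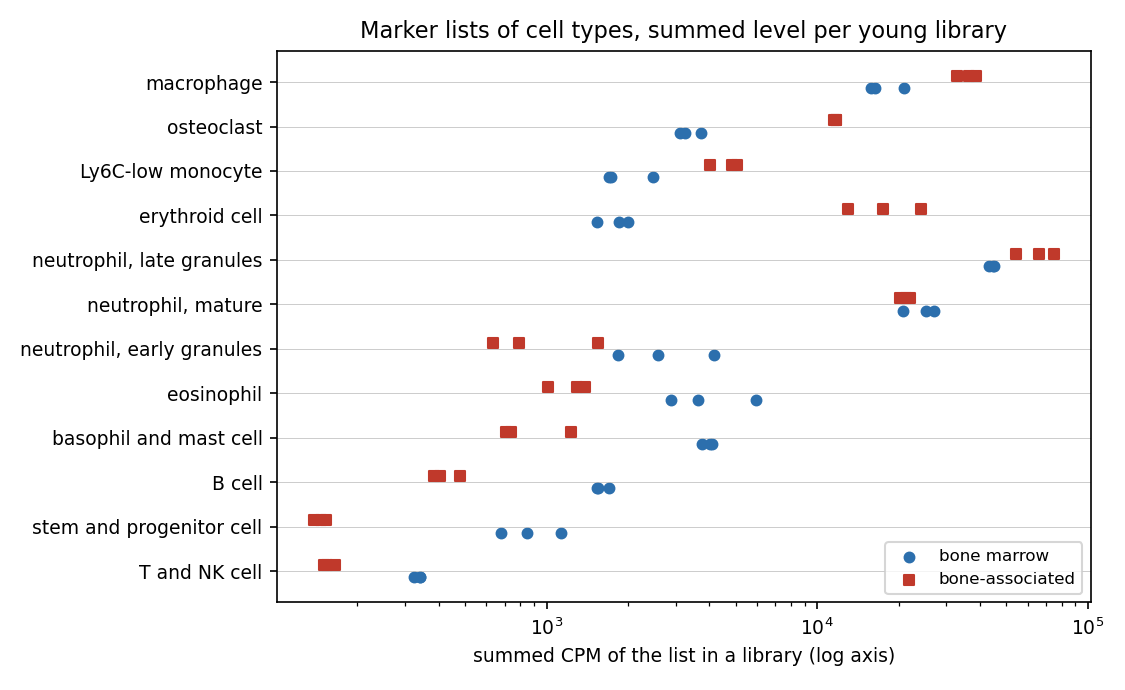
Summed CPM (log axis) of 12 cell type marker lists in each young library, with squares for bone-associated and circles for bone marrow. Macrophage, osteoclast, Ly6C-low monocyte, erythroid and late neutrophil granule sums are higher in every bone-associated library. Sums of early granule, eosinophil, basophil, B cell, stem and progenitor and T and NK lists are higher in every bone marrow library.

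Marker lists of several other cell types differed between the sites in the sorted cells. Their part in the differences of macrophage genes was not tested. Of 12 stem and progenitor genes, 10 were called lower in bone-associated cells and none higher (83.3% called, median log2 fold change -2.95), with 138 to 153 summed CPM in bone-associated and 681 to 1130.5 in bone marrow libraries. The stem cell transcription factor Hlf had 1.28, 0.384 and 1.78 CPM at bone against 29.7, 37.6 and 46.96 CPM in marrow (log2 fold change -5.15 ± 0.87, adjusted p = 0.00384). The progenitor receptor Flt3 had 23.9, 23.5 and 29.7 CPM at bone against 93.2, 135 and 136 CPM in marrow (log2 fold change -2.23 ± 0.17, adjusted p = 1.77e-04), and the transcription factors Myb (17.99, 10.3 and 29.03 CPM at bone against 117, 131 and 231 CPM in marrow; log2 fold change -3.11 ± 0.27, adjusted p = 2.46e-04) and Gata2 (11.7, 6.03 and 7.23 CPM at bone against 91.05, 89.2 and 125 CPM in marrow; log2 fold change -3.65 ± 0.48, adjusted p = 0.00129) followed. Bone marrow exceeded bone-associated cells in every mouse for these 4 genes. Angpt1, a ligand that stem cells and stroma make, had 5.41, 8.34 and 4.54 CPM at bone against 44.3, 55.8 and 77.96 CPM in marrow (log2 fold change -3.29 ± 0.38, adjusted p = 6.70e-04).

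B cell and T and NK cell transcripts were also lower in bone-associated cells, while a short list of plasma cell genes was split. Of 16 B cell genes, 10 were lower and none higher (median log2 fold change -3.32), with 384 to 481 summed CPM in bone-associated and 1537 to 1697 in bone marrow libraries. Pax5, the factor that fixes B cell fate, had 0.921, 1.26 and 1.85 CPM at bone against 23.6, 17.4 and 19.6 CPM in marrow (log2 fold change -3.94 ± 0.43, adjusted p = 5.62e-04). The precursor B cell gene Vpreb3 had 4.89, 6.14 and 20.5 CPM at bone against 71.8, 96.7 and 122 CPM in marrow (log2 fold change -3.46 ± 0.32, adjusted p = 3.18e-04) and Ebf1 a log2 fold change of -3.28. Immunoglobulin genes took 0.0475% to 0.0726% of counts in bone-associated and 0.332% to 0.351% in bone marrow libraries. Of 15 T and NK cell genes, 7 were lower and 1 higher, with 150.2 to 166 summed CPM in bone-associated and 324 to 342 in bone marrow libraries. This count of lower genes was 4 without mouse 1, 4 without mouse 2 and 4 without mouse 3. The cytotoxic granule gene Nkg7 had 10.8, 13.7 and 27.2 CPM at bone against 87.3, 119.8 and 149 CPM in marrow (log2 fold change -2.86 ± 0.18, adjusted p = 9.25e-05) and the kinase Lck 2.84, 2.19 and 7.92 CPM at bone against 23.1, 27.7 and 27.01 CPM in marrow (log2 fold change -2.79 ± 0.51, adjusted p = 0.00537). Of 6 plasma cell genes, 3 were higher and 2 lower, and their summed level was higher in every bone-associated library, with 489 to 516 summed CPM in bone-associated and 260.3 to 299 in bone marrow libraries. The higher members were Xbp1, a transcription factor of secretory cells (275, 276 and 299 CPM at bone against 195, 182 and 188 CPM in marrow; log2 fold change 0.59), Prdm1 (2.49) and the syndecan Sdc1 (1.69), none of which is restricted to plasma cells. With library-size scaling Xbp1 lost its call (adjusted p = 0.181). The lower members were Mzb1, an endoplasmic reticulum protein of antibody-secreting cells (2.36, 2.03 and 5.96 CPM at bone against 27.1, 29.4 and 22.5 CPM in marrow; log2 fold change -3.05 ± 0.49, adjusted p = 0.00308), and the antibody joining chain Jchain, which had 0.160, 0.548 and 1.13 CPM at bone against 26.999, 3.43 and 32.6 CPM in marrow (log2 fold change -5.03 ± 0.62, adjusted p = 9.45e-04), with mouse 2 far below the other mice in bone marrow.

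Basophil, dendritic cell and neutrophil precursor genes were lower too, with counts that depended more on the fit. Of 8 basophil and mast cell genes tested, 4 were lower and 1 higher, at a median log2 fold change of -3.95, the lowest of all lists, and with 711 to 1237 summed CPM in bone-associated and 3750.0 to 4103 in bone marrow libraries. The number called lower was 7 with the young libraries alone and no block, 1 without the low-count filter, 7 with DESeq2, 7 with limma-voom, 1 without mouse 1, 1 without mouse 2, 1 without mouse 3 and 7 without aged mouse 1. The high-affinity IgE receptor chain Fcer1a had 3.25, 3.56 and 0.981 CPM at bone against 64.9, 62.6 and 55.6 CPM in marrow (log2 fold change -4.69 ± 0.91, adjusted p = 0.00911). The call of Fcer1a did not hold in 4 of 14 alternative fits, where the adjusted p was 0.0842 without the low-count filter, 0.0695 without mouse 1, 0.0605 without mouse 2 and 0.0814 without mouse 3. Of 13 dendritic cell genes, 6 were lower and 1, the migration receptor Ccr7, was higher. Ccr7 lost its call in 1 of 14 alternative fits, at adjusted p of 0.0870 without the mouse block. Alternative fits moved the count of lower genes to 2 without mouse 1, 3 without mouse 2 and 3 without mouse 3. Of 10 early granule genes of neutrophil precursors, 5 were lower and none higher, with 634 to 1554 summed CPM in bone-associated and 1835 to 4171 in bone marrow libraries. This count of lower genes was 8 with the young libraries alone, 8 with limma-voom and 3 without mouse 1. Cathepsin G (Ctsg) had 20.03, 11.95 and 36.1 CPM at bone against 166, 241 and 264 CPM in marrow (log2 fold change -3.40 ± 0.31, adjusted p = 3.16e-04) and Ms4a3, a marker of granulocyte and monocyte progenitors, 10.1, 19.6 and 27.6 CPM at bone against 117, 154 and 135 CPM in marrow (log2 fold change -2.93 ± 0.25, adjusted p = 2.19e-04). Myeloperoxidase (Mpo) had 194, 89.4 and 726 CPM at bone against 853, 1290.5 and 2585 CPM in marrow (log2 fold change -2.59 ± 0.51, adjusted p = 0.00829). The call of Mpo did not hold in 3 of 14 alternative fits, where the adjusted p was 0.0839 with the young libraries alone and no block, 0.0877 without the low-count filter and 0.0513 without mouse 1. Elastase (Elane) had 45.95, 31.5 and 212 CPM at bone against 160.3, 277 and 471 CPM in marrow and was not called (adjusted p = 0.0927). Elane passed in 4 of 14 alternative fits, at adjusted p of 0.00668 with the young libraries alone, 0.0323 with DESeq2, 0.0340 with limma-voom and 0.00533 without aged mouse 1.

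Neutrophil transcripts, both of late granules and of mature cells, were abundant at both sites although the gate was for macrophages. The late granule list had 54121 to 74820.1 summed CPM in bone-associated and 43059.9 to 45017 in bone marrow libraries. Of its 12 genes, 3 were higher and 1 lower in bone-associated cells (median log2 fold change 0.27). The share called was 33.3%, against 24.6% of all genes tested. With library-size scaling 1 was higher and 4 were lower at a median of -0.13. Leaving out any 1 young mouse left 1 higher, and 5 were higher and 2 lower with DESeq2 and with limma-voom. For the mature neutrophil list 3 of 14 were higher and 3 lower, with 20188 to 22015 summed CPM in bone-associated and 20733 to 27019 in bone marrow libraries. Of these 6 were lower with library-size scaling and 1 without any 1 young mouse. The calprotectin chain S100a8 had 5342, 5429 and 4988 CPM at bone against 8481, 8101 and 6601 CPM in marrow (log2 fold change -0.55 ± 0.16, adjusted p = 0.0380). The call of S100a8 did not hold in 5 of 14 alternative fits, where the adjusted p was 0.0580 without the mouse block, 0.176 without mouse 1, 0.188 without mouse 2, 0.0909 without mouse 3 and 0.0519 without aged mouse 1. Ly6g, the defining surface marker of neutrophils, overlapped at 197, 129 and 167 CPM at bone against 229, 207 and 189 CPM in marrow (log2 fold change -0.36, adjusted p = 0.142). Ly6g passed in 1 of 14 alternative fits, at adjusted p of 0.00806 with library-size scaling. The interferon-inducible Slfn4 was lower, at 27.96, 10.6 and 21.7 CPM at bone against 398, 312 and 216 CPM in marrow (log2 fold change -3.99 ± 0.28, adjusted p = 1.32e-04), and G0s2, an inhibitor of fat breakdown, higher, at 286, 239.6 and 323 CPM at bone against 139, 110.1 and 101 CPM in marrow (log2 fold change 1.28 ± 0.17, adjusted p = 0.00129). The 12 eosinophil genes had 1 call higher and 3 lower (33.3% called, against 24.6% of all genes tested). They had 1010.4 to 1383 summed CPM in bone-associated and 2894 to 5954 in bone marrow libraries. None of them was called without mouse 2 or without mouse 3. Neutrophil and eosinophil RNA in these libraries was not separated from that of macrophages.

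Some platelet and cartilage markers stood out in single bone-associated libraries, and some endothelial and stromal markers in those of mice 2 and 3. The platelet chemokine Ppbp had 9.86, 992 and 3.81 CPM at bone against 1.59, 5.52 and 2.01 CPM in marrow, high only in mouse 2, where glycoprotein Gp5 was also at 145 CPM against 6.41 and 0 in mice 1 and 3. The cartilage collagen Col2a1 was at 560.3 CPM in the bone-associated library of mouse 1 and at 2.41 and 0.0363 in those of mice 2 and 3. The endothelial receptor Kdr had 0.481, 7.35 and 28.2 CPM at bone against 2.52, 3.40 and 2.46 CPM in marrow, and the stromal receptor Lepr 1.16, 30.2 and 52.4 CPM at bone against 0.550, 2.31 and 1.95 CPM in marrow. Each was highest in the bone-associated library of mouse 3, and that of mouse 2 was also above every bone marrow library. These genes, picked after their values were seen, were not called. Ppbp passed in 3 of 14 alternative fits, at adjusted p of 0.0311 without the mouse block, 0.00978 with DESeq2 and 2.16e-04 with limma-voom. Gp5 passed in 1 of 14 alternative fits, at adjusted p of 0.00722 with limma-voom. Col2a1 passed in 2 of 14 alternative fits, at adjusted p of 0.0403 with limma-voom and 0.00422 without mouse 2. Lepr passed in 4 of 14 alternative fits, at adjusted p of 0.00584 with the young libraries alone, 0.0376 with the young libraries alone and no block, 0.00275 with limma-voom and 0.0322 without aged mouse 3. The stromal niche chemokine Cxcl12 was lowest in mouse 1 and highest in mouse 3 as well, at 42.9, 135 and 294 CPM at bone against 19.6, 44.2 and 30.1 CPM in marrow, with 1 bone-associated library below a bone marrow library (log2 fold change 1.996 ± 0.62, adjusted p = 0.0491). The call of Cxcl12 did not hold in 7 of 14 alternative fits, where the adjusted p was 0.0820 with library-size scaling, 0.0510 with DESeq2 size factors, 0.264 without the low-count filter, 0.105 without mouse 1, 0.163 without mouse 2, 0.253 without mouse 3 and 0.0737 without aged mouse 1. Endothelial markers had 1 call higher and 1 lower of 13, stromal markers 2 and 1 of 13, and megakaryocyte markers 2 and none of 13. These shares, 15.4%, 23.1% and 15.4%, were below the 24.6% of all genes tested. Skeletal muscle actin Acta1 had 24.04, 19.6 and 67.3 CPM at bone against 1.45, 2.09 and 1.47 CPM in marrow (log2 fold change 4.26 ± 0.56, adjusted p = 0.00124).

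Genes of energy metabolism were higher in bone-associated cells. Of 30 oxidative phosphorylation genes, 25 were higher and none lower (83.3% called, median log2 fold change 0.77). The number called higher was 12 with library-size scaling, 15 without mouse 2 and 16 without mouse 3. The ATP synthase subunit Atp5b had 2069, 2469.5 and 2220.2 CPM at bone against 891, 920.4 and 983 CPM in marrow (log2 fold change 1.27 ± 0.14, adjusted p = 5.33e-04) and the complex III core protein Uqcrc1 607, 744 and 662 CPM at bone against 268, 272 and 294 CPM in marrow (log2 fold change 1.27 ± 0.13, adjusted p = 4.96e-04). Of 24 genes of glycolysis and hypoxia, 13 were higher and none lower. Alternative fits moved the count of higher genes to 8 with library-size scaling and 8 without mouse 1. The lactate exporter Slc16a3 (MCT4) had 605, 487 and 646 CPM at bone against 101, 87.8 and 91.9 CPM in marrow (log2 fold change 2.62 ± 0.16, adjusted p = 7.71e-05), the glucose transporter Slc2a1 (GLUT1) 96.7, 91.6 and 95.7 CPM at bone against 21.6, 28.04 and 20.8 CPM in marrow (log2 fold change 2.02 ± 0.15, adjusted p = 1.41e-04) and enolase Eno1 1358, 1333 and 1429.9 CPM at bone against 540.1, 568 and 583 CPM in marrow (log2 fold change 1.29 ± 0.15, adjusted p = 7.48e-04). Which of the sorted cells carried these transcripts was not tested. The hypoxia target Car9 (-0.28) was not called.

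Lipid genes followed in part. Of 19 lipid handling genes, 12 were higher and none lower, or 8 and 2 with library-size scaling. Apolipoprotein E (Apoe), which carries cholesterol out of macrophages, had 8552, 7109 and 7869 CPM at bone against 4280.1, 2694 and 2830.3 CPM in marrow (log2 fold change 1.29 ± 0.15, adjusted p = 6.36e-04), and the lipid droplet coat Plin2 had 462, 464 and 383 CPM at bone against 181, 183 and 159.6 CPM in marrow (log2 fold change 1.32 ± 0.11, adjusted p = 1.94e-04). Of 22 cholesterol synthesis genes 8 were higher (36.4% called, against 24.6% of all genes tested). This count of higher genes was 1 with library-size scaling, 1 without mouse 1, 2 without mouse 2 and 4 without mouse 3. Insig1, which holds the cholesterol sensor in the endoplasmic reticulum, had the smallest adjusted p among them, at 75.2, 55.2 and 48.5 CPM at bone against 30.6, 27.9 and 27.5 CPM in marrow (log2 fold change 1.03 ± 0.17, adjusted p = 0.00391). Ribosomal protein genes stayed close to the median of all genes, with 2 of 40 higher and 4 lower. The number called lower was 7 with the young libraries alone, 20 with library-size scaling, 2 without the low-count filter, 0 without mouse 1, 0 without mouse 2, 1 without mouse 3 and 2 without aged mouse 1. Of 38 cell cycle genes, none was higher and 3 were lower (7.89% called, below the share of all genes), and both counts depended on the fit. None was higher and 11 were lower with library-size scaling, 3 were higher and 8 lower with the young libraries alone, 3 and 7 with DESeq2, and 3 and 6 with limma-voom. None was lower without mouse 2 or without mouse 3. The proliferation marker Mki67 had 53.5, 24.7 and 50.1 CPM at bone against 78.6, 111 and 170.1 CPM in marrow (log2 fold change -1.50 ± 0.46, adjusted p = 0.0482). Mki67 lost its call in 5 of 14 alternative fits, at adjusted p of 0.193 without the low-count filter, 0.0529 without mouse 1, 0.257 without mouse 2, 0.221 without mouse 3 and 0.0610 without aged mouse 1. Top2a, the topoisomerase of dividing cells, overlapped between sites at a log2 fold change of -0.37.

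Antigen presentation genes moved in opposite directions within each class. In class I, 4 of 13 genes were higher and 4 lower. Alternative fits moved the count of lower genes to 7 with library-size scaling. The heavy chain H2-D1 had 5445, 4902 and 5738 CPM at bone against 3355, 2810.2 and 2676 CPM in marrow (log2 fold change 0.87 ± 0.11, adjusted p = 0.00122) and the peptide loading protein Tapbp 735, 682 and 724 CPM at bone against 328, 314 and 316 CPM in marrow (log2 fold change 1.16 ± 0.11, adjusted p = 3.60e-04). Nlrc5, the transcriptional activator of class I genes, was lower, at 11.6, 9.71 and 5.99 CPM at bone against 34.5, 45.5 and 42.2 CPM in marrow (log2 fold change -2.20 ± 0.25, adjusted p = 6.96e-04), as was H2-Q6 (-1.13). Class I heavy chains are near-identical copies, so how reads were split among them is uncertain. In class II, 2 of 11 were higher and 4 lower. The class II chains H2-Ob (10.9, 19.1 and 11.9 CPM at bone against 89.3, 80.95 and 56.2 CPM in marrow; log2 fold change -2.45 ± 0.30, adjusted p = 9.45e-04) and H2-Oa (-2.15), which are typical of B cells, and H2-DMb2 (-1.59) were lower. The main class II chain H2-Ab1 was not called, at 2234, 3891 and 2492 CPM at bone against 2171, 2067 and 1397 CPM in marrow (adjusted p = 0.142), with mouse 2 the highest of the bone-associated libraries. H2-Ab1 passed in 1 of 14 alternative fits, at adjusted p of 0.0462 with the young libraries alone.

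Interferon-response genes did not move together. Of 24, 4 were higher and 4 lower, at a median log2 fold change of -0.18 (33.3% called, against 24.6% of all genes tested). The antiviral proteins Rsad2 (307, 189 and 374 CPM at bone against 60.2, 60.1 and 39.8 CPM in marrow; log2 fold change 2.41 ± 0.34, adjusted p = 0.00169) and Isg15 (39.6, 37.7 and 41.4 CPM at bone against 18.4, 14.7 and 13.6 CPM in marrow; log2 fold change 1.36 ± 0.23, adjusted p = 0.00354) were higher. The dynamin-like Mx1 (5.45, 5.54 and 5.09 CPM at bone against 43.9, 28.7 and 19.2 CPM in marrow; log2 fold change -2.43 ± 0.29, adjusted p = 8.14e-04) and the signal transducer Stat2 (33.4, 37.4 and 56.5 CPM at bone against 128, 113 and 90.3 CPM in marrow; log2 fold change -1.40 ± 0.24, adjusted p = 0.00417) were lower. Both pairs are induced by the same interferons, and neither member of either pair overlapped between sites. Irf7, the factor that amplifies the response, overlapped at a log2 fold change of -0.23. Irf7 passed in 1 of 14 alternative fits, at adjusted p of 0.0158 with library-size scaling. This count of higher genes was 2 with library-size scaling and 2 without mouse 3. The number called lower was 9 with library-size scaling, 2 without mouse 1 and 2 without mouse 2.

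Transcription factors and growth factors included genes of both directions. Of 35 myeloid transcription factors, 11 were higher and 6 lower. Alternative fits moved the count of lower genes to 11 with library-size scaling. The oxidative stress factor Nfe2l2 (NRF2) had 491, 511 and 438 CPM at bone against 151, 114 and 133 CPM in marrow (log2 fold change 1.86 ± 0.18, adjusted p = 3.66e-04) and the circadian repressor Bhlhe40 610.4, 639.6 and 459 CPM at bone against 103, 62.98 and 75.9 CPM in marrow (log2 fold change 2.83 ± 0.20, adjusted p = 1.18e-04). Bach2, a repressor best known from lymphocytes, was lower, at 5.05, 10.3 and 13.2 CPM at bone against 24.9, 53.8 and 59.8 CPM in marrow (log2 fold change -2.29 ± 0.19, adjusted p = 2.05e-04), as were Gfi1 (-2.87) of granulocytes and Batf3 (-1.47) of dendritic cells. Maf, a factor of resident macrophages, overlapped between sites at a log2 fold change of -0.14. Of 26 growth and niche factor genes, 12 were higher and 2 lower. This count of higher genes was 7 with library-size scaling, 7 without mouse 2 and 6 without mouse 3. The platelet-derived growth factor Pdgfb, which recruits pericytes and stroma, had 39.8, 48.1 and 36.9 CPM at bone against 10.8, 13.4 and 9.88 CPM in marrow (log2 fold change 1.88 ± 0.17, adjusted p = 3.09e-04), and progranulin (Grn), a lysosomal and secreted protein, had 1909, 1659 and 1747 CPM at bone against 852, 654 and 714 CPM in marrow (log2 fold change 1.27 ± 0.11, adjusted p = 2.12e-04). The stem cell factor gene Kitl was low and not called, at 8.89, 6.58 and 10.3 CPM at bone against 6.29, 3.81 and 4.21 CPM in marrow (adjusted p = 0.149). Of 25 integrin and adhesion genes, 12 were higher and 2 lower, among them the fibronectin receptor chains Itga5 (202, 264 and 157 CPM at bone against 46.2, 32.5 and 41.1 CPM in marrow; log2 fold change 2.36 ± 0.25, adjusted p = 4.94e-04) and Itgb1 (1.35).

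**Figure D5:**
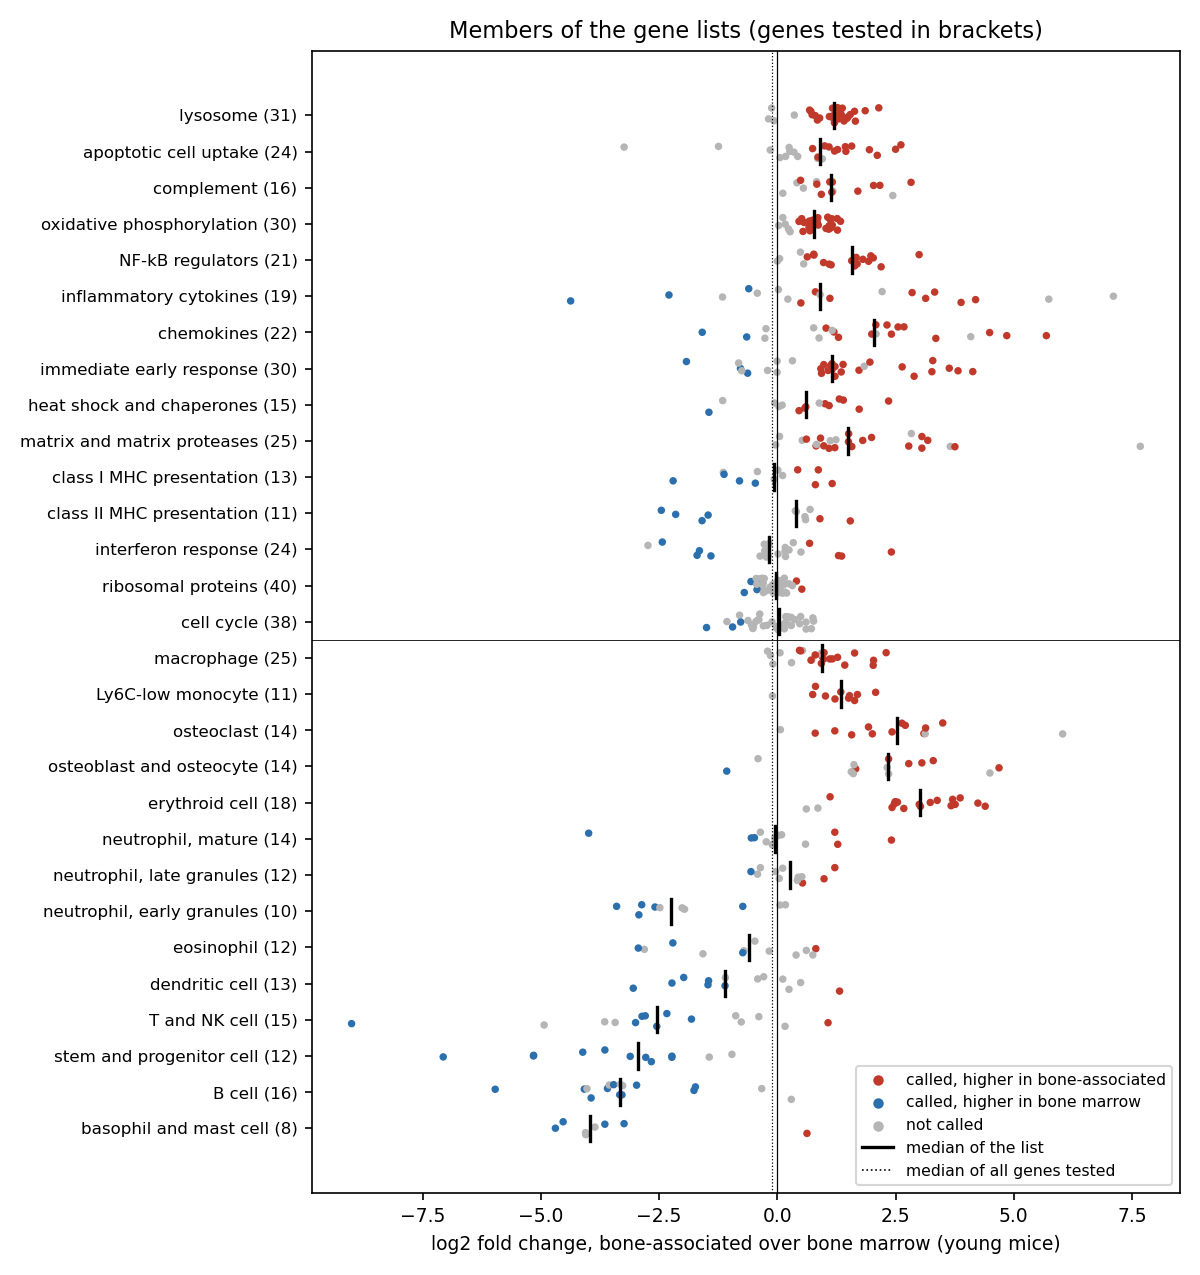
Log2 fold change of bone-associated over bone marrow (x axis) for each tested member of 29 gene lists, coloured by call. Bars mark the median of each list and a dotted line that of all genes (-0.11). Lysosome, NF-kB, osteoclast and erythroid members lie mostly to the right, stem cell, B cell and basophil members to the left, and ribosomal and cell cycle members around 0.

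The largest fold changes included genes with few or no counts at one site. Among genes with a mean of at least 10 CPM at the higher site, Flrt3 (chr2:140650914-140671469), a transmembrane adhesion protein, had 12.1, 28.2 and 8.57 CPM in bone-associated cells and no count in bone marrow, and was at least 526-fold higher against a floor of 3 counts over the group. Gprc5a, an orphan receptor induced by retinoic acid, had 14.6, 21.7 and 20.7 CPM at bone against 0.203, 0.343 and 0 CPM in marrow (log2 fold change 6.86 ± 0.82, adjusted p = 0.00217). Ltbp1, which stores latent TGF-beta in matrix, had 10.7, 24.6 and 11.99 CPM at bone against 0.261, 0.593 and 0.381 CPM in marrow (log2 fold change 5.22 ± 0.89, adjusted p = 0.00406). Wnt11, Lrrc32, Retnla and Pgf had log2 fold changes of 6.78, 6.82, 6.41 and 4.71 and adjusted p of 0.0147, 0.0197, 0.0321 and 0.0162, and each lost its call without mouse 2. The call of Wnt11 did not hold in 3 of 14 alternative fits, where the adjusted p was 0.0999 without the low-count filter, 0.0832 without mouse 2 and 0.0841 without mouse 3. Lrrc32 lost its call in 3 of 14 alternative fits, at adjusted p of 0.0943 without the low-count filter, 0.105 without mouse 1 and 0.0993 without mouse 2. The call of Retnla did not hold in 4 of 14 alternative fits, where the adjusted p was 0.153 without the low-count filter, 0.167 without mouse 2, 0.174 without mouse 3 and 0.0694 without aged mouse 2. Pgf lost its call in 2 of 14 alternative fits, at adjusted p of 0.0618 without mouse 1 and 0.0983 without mouse 2. On the other side Efcc1 (chr6:87730869-87755908), a calcium-binding domain protein, had no count in bone-associated cells and 7.07, 12.4 and 12.9 CPM in bone marrow, at least 255-fold lower. The homeobox gene Nkx2-3, needed for spleen formation, had 2 counts in bone-associated cells and 10.4, 16.5 and 17.8 CPM in bone marrow, a ratio of 530.1 with an exact 95% counting interval of 147 to 4381. Such floors and intervals cover counting error only. Fam129c, a B cell protein, had 3.77, 1.86 and 4.69 CPM at bone against 131, 146 and 129.5 CPM in marrow (log2 fold change -5.34 ± 0.31, adjusted p = 6.97e-05), and the lymphocyte adaptor Lax1 0.441, 0.110 and 0.654 CPM at bone against 14.6, 12.98 and 13.7 CPM in marrow (log2 fold change -5.17 ± 0.51, adjusted p = 3.84e-04).

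Ranked by adjusted p over the whole table, further genes stood beside Cd14 and Tlr2. They are named here after their values were seen. Cd83, an activation marker of dendritic cells and macrophages, had 1591, 1769 and 1168 CPM at bone against 123, 91.2 and 68.7 CPM in marrow (log2 fold change 4.02 ± 0.15, adjusted p = 2.81e-05). Irg1, the enzyme that makes itaconate in activated macrophages, had 276, 201 and 276 CPM at bone against 14.5, 14.3 and 14.9 CPM in marrow (log2 fold change 4.10 ± 0.18, adjusted p = 3.62e-05), and the cell cycle inhibitor Cdkn1a (p21) 271, 372 and 235 CPM at bone against 23.8, 24.1 and 23.9 CPM in marrow (log2 fold change 3.59 ± 0.17, adjusted p = 3.62e-05). In the other direction Adgrg1, an adhesion receptor of stem and cytotoxic cells, had 28.4, 35.6 and 44.7 CPM at bone against 192, 247 and 383 CPM in marrow (log2 fold change -2.88 ± 0.13, adjusted p = 3.62e-05). Ets2, a transcription factor that acts downstream of the CSF1 receptor, had 408, 337 and 330.2 CPM at bone against 53.7, 42.2 and 37.8 CPM in marrow (log2 fold change 3.02 ± 0.12, adjusted p = 2.81e-05). All 5 separated the sites in every mouse.

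The same contrast in 24-month-old mice gave 4708 calls, and 2721 genes were called in the same direction at both ages against 29 in opposite directions. A test of the difference between the 2 site effects passed for 57 of 16209 genes (0.352%), and 2108 had an unadjusted p below 0.05. The number passing depended strongly on the tool: DESeq2 gave 930, and edgeR without the mouse block 45. The aged libraries are labelled male but carry Xist at 55.2 to 479 CPM with Y-linked genes at or near 0, so age cannot be told apart from that mismatch. Among the genes named above, 12 passed this test, but many were named for their young site effect, which is part of the tested difference. Flt3 had a log2 fold change of -2.23 in young and 0.91 in aged mice (difference 3.14, adjusted p = 0.00435). Fcgr4 went from 1.17 to -1.29 (difference -2.47, adjusted p = 0.00854). The excess of Il10 in young bone-associated cells, 3.88, was 0.59 at 24 months (difference -3.30, adjusted p = 0.0320), and that of Alas2 was 1.19 against 4.39 (difference -3.21, adjusted p = 0.0435). Nr4a2 had the larger difference in aged mice, 5.78 against 3.27 (difference 2.52, adjusted p = 0.00910). For Cd14, Il1b, Ctsk and Csf1r the test did not pass, with adjusted p of 0.737, 0.116, 0.0777 and 0.297 and log2 fold changes in aged mice of 4.53, 1.98, 5.22 and 2.73. The number of genes passing was 5 without young mouse 1, 8 without mouse 2 and 5 without mouse 3, and 23, 71 and 25 without aged mouse 1, 2 or 3.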

How the data were processed

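RNA-seq gene counts of 12 libraries, 6 from 3-month-old and 6 from 24-month-old mice, were used. Full-length cDNA was made from 1 ng of RNA with SMART-Seq v4, per the labels' protocols. The authors deposited raw counts per gene, made with Trimmomatic 0.32, STAR 2.4.2a, HTSeq 0.6.1 and GRCm38.p4, per the submitters' processing notes. No source used here gives the annotation or the strand setting, so reads of overlapping and antisense genes cannot be told apart. All values here were computed from those counts with edgeR 4.0.16 in R 4.3.3: genes were filtered by filterByExpr, libraries were scaled by TMM, and a robust quasi-likelihood model with the mouse as a block and a site effect per age was fitted to all 12 libraries (4 residual degrees of freedom). P-values were adjusted by Benjamini-Hochberg over 16209 genes. The scripts were tested on simulated data in which 99 tested genes were changed 2-fold and 98 were changed 4-fold. Of these, 17.2% and 55.1% were called, and 3 of the 74 calls were false. Far fewer genes were changed there than were called here, which makes the adjusted p stricter in the simulation. It also held no mouse effect, and its spread was estimated without the mouse block. These shares are thus only a rough guide to the fit used here. A gene not called here is not shown to be unchanged.

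The libraries are separate samples of 3 mice per age. The pairing comes from the mouse code in the titles. Over 10309 genes, deviations from the group means correlated only weakly between the libraries of the same mouse, at 0.0950, 0.0693 and 0.0769. Between those of different mice the values were -0.0197 or lower. The 3 deviations of a group sum to 0, so these negative values follow in part from the positive ones and are not separate evidence. An exact permutation test of 3 against 3 that ignores the pairing cannot give a p below 0.1. Swapping the sites within each of the 3 mice allows fewer arrangements still, so neither was run. DESeq2 1.42.0 and limma 3.58.1 were alternatives.

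The comparison and the gene lists were chosen with earlier results of these data known. Genes were named by 3 parts of a rule: the 10 largest fold changes per direction among called genes with at least 10 CPM and no overlap, up to 4 called genes with the smallest adjusted p per list, and a set of key genes. Other named genes, uncalled members and those shown for their promoters, were chosen after their values were seen. Promoter windows are from RefSeq (GRCm38.p6).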

Additional observations from a re-analysis of the deposited data

Results flagged for a closer look

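For 12 of the 185 tested genes named above, the site effect differed between 3 and 24 months by the test of the difference itself. This was edgeR's quasi-likelihood test, Benjamini-Hochberg adjusted over all genes, and it passed for 0.352% of all genes. Many named genes were chosen for their site effect in young mice, which is part of the tested difference. The 2 shares are therefore not comparable. Differences are given as the aged minus the young log2 fold change. The difference was positive, toward bone-associated cells at 24 months, for Flt3 (3.14, adjusted p = 0.00435), Ccr7 (2.17, adjusted p = 0.00435), Adgrg1 (2.52, adjusted p = 0.00435), Nr4a2 (2.52, adjusted p = 0.00910), Jchain (7.15, adjusted p = 0.0172), Fam129c (2.76, adjusted p = 0.0396) and Lax1 (4.36, adjusted p = 0.0433). It was negative, toward bone marrow at 24 months, for Fcgr4 (-2.47, adjusted p = 0.00854), Irg1 (-1.81, adjusted p = 0.0294), Il10 (-3.30, adjusted p = 0.0320), Cd300e (-1.97, adjusted p = 0.0433) and Alas2 (-3.21, adjusted p = 0.0435). In young and aged mice Jchain had log2 fold changes of -5.03 and 2.12, Ccr7 1.32 and 3.49, Fcgr4 1.17 and -1.29, Cd300e 1.69 and -0.28, and Irg1 4.10 and 2.29. The aged libraries carry Xist and lack Y-linked transcripts against their male label, so age and that mismatch cannot be told apart for any of these genes.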

How the results depend on the processing

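Of the 152 called genes named above, 136 kept their call and direction in all 14 alternative fits, 16 lost the call in at least 1 and none reversed. With no replicate block 4523 genes were called between the sites, more than the 3984 of the paired fit, and 45 differed in site effect between ages, fewer than its 57. With the young libraries alone the count was 5592 with the block, 2842 of them higher in bone marrow, and 6012 without it, 3127 of them higher in bone marrow. Library-size scaling gave 1119 genes higher in bone-associated cells and 3531 higher in bone marrow, and 2812 of the 3984 calls held their direction. DESeq2 gave 2742 genes higher in bone marrow and 930 differing between ages. Leaving out 1 mouse, which drops both its libraries, gave 1861 to 4573 calls, 1212 to 2556 higher in bone-associated cells and 649 to 2017 higher in bone marrow; the lowest of each came without young mouse 2 and the highest without aged mouse 3. Leaving out 1 mouse of either age gave 5 to 71 genes differing between ages. Uncalled genes changed sign as follows: with library-size scaling Mertk to -0.34, Siglec1 to -0.10 and Tlr4 to -0.14. Leaving out 1 mouse moved the log2 fold change of Casp1 from -0.36 to 0.13, of Col2a1 from -2.43 to 9.02, of Gp5 from -1.96 to 3.79, of Kdr from -0.47 to 2.31, of Mertk from -0.0455 to 0.14, of Spic from -0.30 to 0.0497 and of Zfp36 from -0.12 to 0.0938. The cause was not tested. Fits without an aged mouse were chosen after seeing the data. With 3 mice, a gene not called is not shown to be unchanged, and in the simulation most 2-fold changes were missed. The simulation was not split by level or depth.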
